A study of Rattus norvegicus with 8 samples.

Results

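Calcineurin is a calcium- and calmodulin-dependent protein phosphatase, and the genes described here encode its subunits, its Rcan regulators, a pair of inhibitors of protein phosphatase 1 (PP1), and the scaffold Akap5. The 9 genes were chosen by symbol, as Ppp3ca, Ppp3cb, Ppp3r1, Rcan1, Rcan2, Rcan3, Ppp1r1a, Ppp1r1b and Akap5, out of the 28909 symbols of the count table. Earlier results of these data were known when they were chosen. All 9 had more than 20 reads in at least 2 libraries and were tested with the 14309 genes that passed this filter. The libraries were made from ribosome-depleted total RNA of hippocampal neurons of embryonic Sprague-Dawley rats, cultured on porous filter inserts. RNA from the upper side of the filter, with the somata, was collected separately from RNA of the lower side. Per the paper, the pores let processes but not somata grow through to that side. The cultures received picrotoxin (PTX), a blocker of GABA-A receptors that raises network activity, or ethanol as its vehicle (control) for 48 h, from DIV (days in vitro) 18 to 20. The 4 conditions were thus somata control, somata PTX, processes control and processes PTX, with 2 libraries of each. No genetic change separated them, and all 4 came from mixed cultures rather than sorted neurons.

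In neurons, a rise in calcium activates calcineurin through calmodulin, and the active enzyme removes phosphate groups from receptors, channels and transcription factors such as NFAT. Phosphorylated inhibitor-1, the product of Ppp1r1a, blocks PP1, and calcineurin relieves this block by dephosphorylating it, so that both phosphatases act in series in synaptic depression. Protein kinase A (PKA) works in the opposite direction by phosphorylating the inhibitors, and Akap5 holds PKA and calcineurin together at the postsynaptic density. The Rcan proteins bind calcineurin and restrain its activity, and transcription of Rcan1 is itself known to follow calcineurin and NFAT.

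The 2 somata control libraries held 13012461 and 13751530 counts, those of somata PTX 14520831 and 12290890, those of processes control 18455662 and 15120334, and those of processes PTX 16972388 and 17444265. Genes of the mitochondrial genome took 22.6% to 26.7% of the counts in somata and 68.5% to 72.5% in processes. The counts left for all other genes were 9517542 to 11227599 per library in somata and 4702054 to 5491237 in processes, and the median tested gene had 268 to 319 reads in somata and 96 to 110 in processes. Each of the 9 genes had fewer reads on average in processes, while the reads of Ppp1r1a overlapped between compartments (344 to 563 in somata and 276 to 405 in processes). In processes Rcan3 had 23 to 49 reads and Ppp1r1b 49 to 85. Levels below are counts per 1e6 counts (CPM) after TMM scaling, and changes are log2 fold changes with their standard error (SE) from edgeR's quasi-likelihood fit of all 8 libraries. Gene lengths were not at hand, so levels are compared between conditions and not between genes. The labels do not say that the 2 libraries of a condition came from separate cultures, and p-values measure only the spread between these libraries.

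The cultures were checked against cell type markers. Map2, the microtubule protein of dendrites and the most abundant of 5 pan-neuronal markers, was detected in all 8 libraries, and the summed level of these markers was 1380 to 1790 CPM in somata and 3710 to 5210 CPM in processes. The 8 astrocyte markers, of which Gfap was the most abundant, summed to 3170 to 4480 CPM in somata and 11400 to 14900 CPM in processes. Single genes carried these sums: Map2 went from 936 CPM in somata control to 4610 CPM in processes control and Gfap from 1680 to 10200 CPM. In control cultures, where 47.7% of all tested genes were called between compartments, 2 of the 5 pan-neuronal markers were higher in processes and 3 lower (Tubb3, Snap25 and Syt1 at 200, 203 and 333 CPM in somata and 135, 157 and 169 CPM in processes), and 4 of the 8 astrocyte markers were higher and 2 lower. The summed level of 6 interneuron markers was 238 to 338 CPM in somata control and 414 to 543 CPM in somata PTX, and 135 to 173 CPM in processes control and 218 to 285 CPM in processes PTX. Gad1 and Gad2 made up most of these sums. Of the 5 markers tested 2 rose with PTX in somata (3.59% of all tested genes were called) and 1 in processes (3.74%). With the replicate number as a block, 4 rose in somata (background 14%) and 2 in processes (11.2%). Slc32a1, the vesicular GABA transporter, was at 28.7 CPM in somata control and 28.2 CPM in somata PTX. Microglial markers summed to at most 2.12 CPM in any library, and none of 7 was tested. The 8 oligodendrocyte lineage markers summed to 293 to 453 CPM in somata control and 469 to 604 CPM in processes control. Of these 8, 1 was called higher in processes control and none lower. Carry-over of cell bodies into the lower side was not measured. In bulk samples such as these, fewer cells of a type and less RNA per cell cannot be told apart, and the part of these shifts in the results below was not tested.

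The 250 bases upstream of the annotated start of 4 of the genes are shown, to set side by side the genes that rose with PTX averaged over compartments, Rcan1 and Rcan2, and those that fell most, Ppp3ca and Akap5. They are read 5′ to 3′ in the direction of transcription from the RefSeq promoter table of build GRCr8, which held 7 of the 9 genes (all but Ppp1r1a and Ppp1r1b). Capitals mark the full cAMP response element (CRE) TGACGTCA, the TATA box TATAAA, the NFAT core TGGAAA and the AP-1 site TGACTCA in Rcan1, the CRE half-site TGACG in Rcan2, and the GC box GGGGCGG in Ppp3ca and Akap5, each on either strand. Rcan1 also has a GC box, 91 to 85 bases before the start, and a GGAAAA core, both left in lower case. The capitals are thus no contrast between rising and falling genes.
Rcan1, upstream bases, chr11:45118237-45118486, minus strand: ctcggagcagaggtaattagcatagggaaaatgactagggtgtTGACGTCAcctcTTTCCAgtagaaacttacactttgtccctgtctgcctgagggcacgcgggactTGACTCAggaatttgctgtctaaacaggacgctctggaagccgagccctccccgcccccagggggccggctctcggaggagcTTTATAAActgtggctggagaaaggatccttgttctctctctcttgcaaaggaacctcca
Rcan2, upstream bases, chr9:24672190-24672439, minus strand: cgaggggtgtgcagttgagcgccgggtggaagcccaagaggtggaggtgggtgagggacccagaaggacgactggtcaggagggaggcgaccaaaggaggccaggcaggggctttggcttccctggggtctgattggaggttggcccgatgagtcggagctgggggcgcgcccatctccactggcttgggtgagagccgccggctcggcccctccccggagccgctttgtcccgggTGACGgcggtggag
Ppp3ca, upstream bases, chr2:227839357-227839606, plus strand: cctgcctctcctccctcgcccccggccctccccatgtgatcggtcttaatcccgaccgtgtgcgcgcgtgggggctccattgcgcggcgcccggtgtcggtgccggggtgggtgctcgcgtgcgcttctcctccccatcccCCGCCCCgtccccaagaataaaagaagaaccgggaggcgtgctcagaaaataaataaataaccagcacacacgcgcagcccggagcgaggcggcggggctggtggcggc
Akap5, upstream bases, chr6:100786919-100787168, plus strand: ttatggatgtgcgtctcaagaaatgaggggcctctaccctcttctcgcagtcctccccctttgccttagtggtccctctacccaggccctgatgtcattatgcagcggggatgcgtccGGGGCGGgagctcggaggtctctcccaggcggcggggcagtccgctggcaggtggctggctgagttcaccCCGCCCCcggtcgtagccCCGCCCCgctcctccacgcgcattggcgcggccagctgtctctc

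Among the 9 genes the full CRE was found in Rcan1, 207 to 200 bases before the start, and in none of the other 6 windows. It occurred in 1.59% of all 33469 windows of the same length. The CRE half-site, which the full element contains on both strands, was found in Rcan1, Rcan2, Ppp3r1 and Ppp3cb and in 18.2% of all windows; in Rcan2 it lay 14 to 10 bases before the start. The NFAT core TGGAAA was found in Rcan1 (19.7% of all windows), the related core GGAAAA in Rcan1 and Rcan3 (21.6%), the AP-1 site in Rcan1 (4.05%) and the TATA box in Rcan1 and Rcan3 (12.9%). The GC box was found in Ppp3ca, Ppp3cb, Ppp3r1, Rcan1 and Akap5 and in 18.8% of all windows. The CRE variant TGACGTAA (0.75% of all windows), the E-box CACGTG (5.59%) and the MEF2 site (0.523%) had no match in the 7 windows. Of the 10 motifs searched, 7 matched in Rcan1, and 1 or 2 in each of the others. A match is a match of letters, and the counts do not separate transcripts that start elsewhere in these genes.

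The first comparison addressed the change of these genes with PTX in each compartment. Over both compartments, the catalytic subunit genes Ppp3ca and Ppp3cb and the scaffold gene Akap5 fell, and Rcan1 and Rcan2 rose, while Ppp3r1, Rcan3, Ppp1r1a and Ppp1r1b did not pass the test. In somata alone, 3 of the 9 genes passed (Rcan2 higher, Ppp3ca and Akap5 lower), and in processes alone 1 did (Ppp3ca, lower). The background was 3.59% of all tested genes called in somata and 3.74% in processes. For the contrast averaged over compartments, 5 of 9 genes passed against 10% of all tested genes, with 2 higher and 3 lower against 5% called higher and 5% called lower. Because the genes were chosen with earlier results of these data known, such shares describe them and do not test them as a set. The median log2 fold change of the 9 genes was 0.43 in somata, 0.01 in processes and 0.23 for the average, against -0.01 over all tested genes in each. Libraries with the same replicate number were taken as paired because their deviations went together in these data. The sources do not say what the numbers mark. With the replicate number as a block 7 of 9 genes passed in somata (background 14%), 5 of 9 in processes (11.2%) and 7 of 9 for the average (21%).

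**Figure D1:**
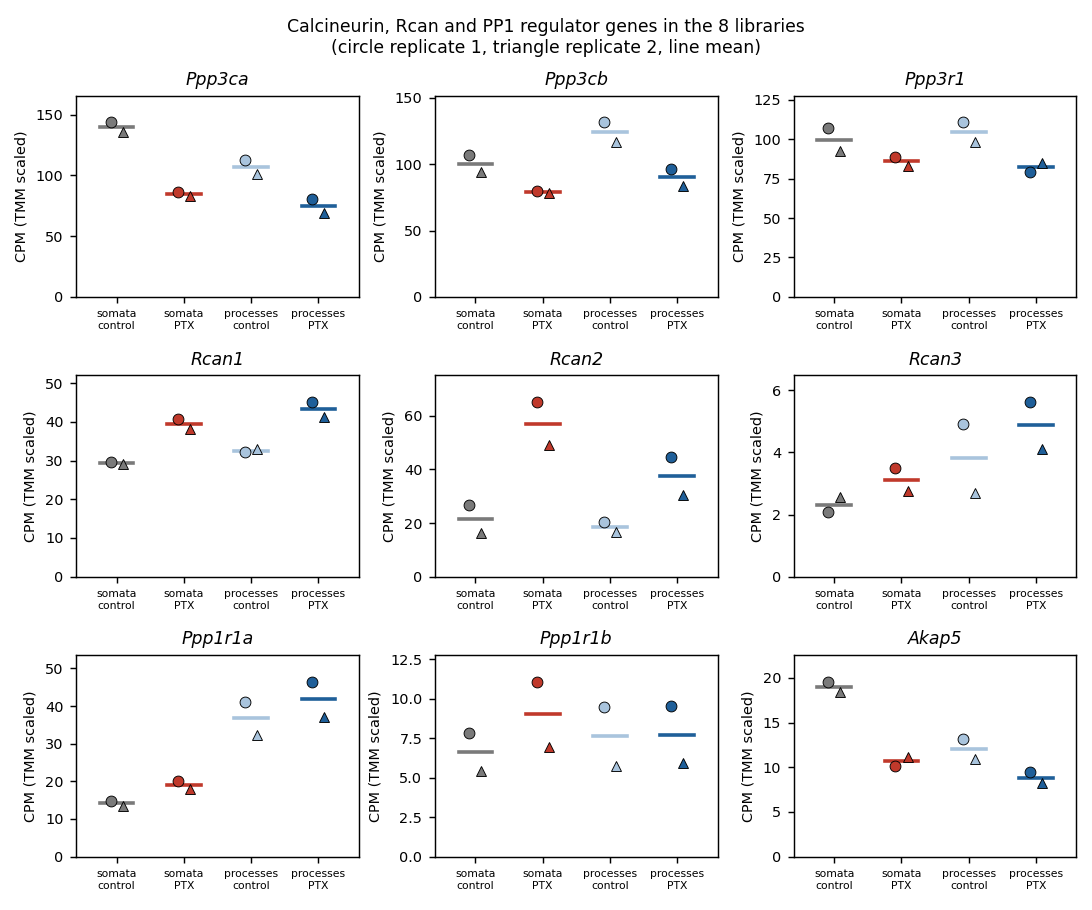
Level of each of the 9 genes in CPM after TMM scaling (y axis, from 0) in the 4 conditions (x axis), with a circle for replicate 1, a triangle for replicate 2 and a line at their mean. Both PTX libraries lie above both control libraries for Rcan1 and Rcan2 and below them for Ppp3ca, Ppp3cb, Ppp3r1 and Akap5 in either compartment, and Ppp1r1a is higher in every processes library than in every somata library.

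Ppp3ca encodes the alpha isoform of the catalytic subunit, the main form in brain. It was measured at 144 and 136 CPM in somata control, 86.0 and 82.8 CPM in somata PTX, 113 and 101 CPM in processes control, and 80.4 and 69.1 CPM in processes PTX. The groups did not overlap in either compartment, and the order of the means ran from somata control over processes control and somata PTX to processes PTX, with no overlap between neighbours. Ppp3ca fell by 0.73 on the log2 scale in somata (SE 0.113, 1.66-fold lower, quasi-likelihood adjusted p = 0.00602) and by 0.51 in processes (SE 0.117, 1.43-fold lower, quasi-likelihood adjusted p = 0.0381). Averaged over compartments it fell by 0.62 (SE 0.081, quasi-likelihood adjusted p = 0.000986), lower in both PTX libraries of each compartment. The call in processes was lost (edgeR adjusted p 0.058 to 0.213, log2 fold change -0.63 to -0.41) when any 1 library other than processes control replicate 2 was left out. It was also lost with library size only (-0.47, edgeR adjusted p = 0.0646) and when only the processes libraries were fitted (-0.50, edgeR adjusted p = 0.106). The call in somata was lost without somata PTX replicate 2 (log2 fold change -0.71, edgeR adjusted p = 0.053).

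Ppp3cb, the gene of the beta isoform, was measured at 107 and 93.8 CPM in somata control and 80.2 and 78.4 CPM in somata PTX. In processes it was at 132 and 117 CPM in control and 96.5 and 83.6 CPM in PTX. Both PTX libraries of a compartment were below both of its control libraries, while processes PTX overlapped somata control. The log2 fold change was -0.34 in somata (SE 0.118, edgeR adjusted p = 0.176) and -0.47 in processes (SE 0.122, edgeR adjusted p = 0.0637), and both passed with the replicate block (edgeR adjusted p = 0.00973 and 0.00121). Averaged over compartments, Ppp3cb fell by 0.40 on the log2 scale (SE 0.085, edgeR adjusted p = 0.0131), a call that was lost without somata control replicate 1 (log2 fold change -0.36, edgeR adjusted p = 0.0539).

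Ppp3r1 encodes the calcium-binding regulatory subunit. It was measured at 107 and 92.4 CPM in somata control, 88.9 and 83.0 CPM in somata PTX, 111 and 98.3 CPM in processes control, and 78.9 and 85.2 CPM in processes PTX. PTX libraries were lower in each compartment without overlap, and the conditions of the same treatment overlapped between compartments. The averaged log2 fold change was -0.29 (SE 0.0835), which missed the threshold (edgeR adjusted p = 0.0562) and passed with the replicate block (edgeR adjusted p = 0.00353), with the likelihood ratio test (0.029), without a filter (0.0383) or without processes control replicate 2 (log2 fold change -0.33, edgeR adjusted p = 0.0494). In processes alone the log2 fold change was -0.35 (edgeR adjusted p = 0.156, with the block 0.0231), and in somata -0.22 (edgeR adjusted p = 0.428).

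Rcan2 had the largest log2 fold change of the 9 genes with PTX in both compartments. It was measured at 26.6 and 16.4 CPM in somata control and 65.2 and 48.9 CPM in somata PTX, and at 20.5 and 16.8 CPM in processes control and 44.6 and 30.4 CPM in processes PTX. The groups did not overlap in either compartment, the control conditions overlapped each other, and somata PTX was above processes PTX. Rcan2 rose in somata by 1.41 on the log2 scale (SE 0.237, 2.66-fold, edgeR adjusted p = 0.00928). This call was lost without somata control replicate 2 (log2 fold change 1.09, edgeR adjusted p = 0.0857) or without somata PTX replicate 1 (1.18, edgeR adjusted p = 0.0615). In processes the log2 fold change was 1.0 (SE 0.265, edgeR adjusted p = 0.0693). That value passed with the replicate block (edgeR adjusted p = 6.23e-06), the likelihood ratio test (0.00503), DESeq2 (0.00226), library size only (0.0341), no filter (2.35e-08) and only the libraries compared (0.0264), and also without somata control replicate 1 (edgeR adjusted p = 0.0372) or replicate 2 (edgeR adjusted p = 0.0378). Averaged over compartments, Rcan2 rose by 1.21 (SE 0.178, 2.31-fold, edgeR adjusted p = 0.00198) and ranked 124th of 14309 genes by the size of the rise.

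Rcan1, whose product is the best known of the Rcan family, moved by a smaller amount with little spread between libraries. Its levels were 29.7 and 29.0 CPM in somata control, 40.8 and 38.2 CPM in somata PTX, 32.1 and 33.0 CPM in processes control, and 45.2 and 41.2 CPM in processes PTX. No condition overlapped another, in the rising order of somata control, processes control, somata PTX and processes PTX. The log2 fold change was 0.43 in somata (SE 0.104, edgeR adjusted p = 0.0512) and 0.41 in processes (SE 0.112, edgeR adjusted p = 0.079), and each passed with the replicate block (edgeR adjusted p = 0.00199 and 0.0126). Averaged over compartments, Rcan1 rose by 0.42 on the log2 scale (SE 0.0765, 1.34-fold, edgeR adjusted p = 0.00639).

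Rcan3, the third member of the family, was the least read of the 9 genes, with 23 to 97 reads per library. It was measured at 2.08 and 2.55 CPM in somata control, 3.49 and 2.75 CPM in somata PTX, 4.91 and 2.70 CPM in processes control, and 5.63 and 4.12 CPM in processes PTX. The treatments overlapped in processes and did not in somata. Its averaged log2 fold change was 0.39 (SE 0.216, edgeR adjusted p = 0.319), so a change of the size of that of Rcan1 was not detectable in these libraries, and the log2 fold change in processes turned to -0.02 without processes control replicate 2.

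The PP1 inhibitor genes did not pass with PTX in the main fit (TMM, read filter, quasi-likelihood test, no block). Ppp1r1a, which encodes inhibitor-1, was measured at 14.7 and 13.5 CPM in somata control, 20.2 and 18 CPM in somata PTX, 41.0 and 32.4 CPM in processes control, and 46.5 and 37.1 CPM in processes PTX. The treatments overlapped in processes and did not in somata. The log2 fold change was 0.44 in somata (SE 0.152, edgeR adjusted p = 0.173, with the block 0.00597), 0.18 in processes (SE 0.154, edgeR adjusted p = 0.621) and 0.31 for the average (SE 0.108, edgeR adjusted p = 0.101, with the block 0.00421). Without a filter on low counts the values in somata and for the average passed (edgeR adjusted p = 0.0499 and 0.0298), and with library size only that for the average did (edgeR adjusted p = 0.0416). Ppp1r1b encodes the dopamine- and cAMP-regulated phosphoprotein, an inhibitor of PP1 best known from striatal neurons. It was measured at 7.82 and 5.44 CPM in somata control, 11.1 and 6.94 CPM in somata PTX, 9.48 and 5.75 CPM in processes control, and 9.53 and 5.93 CPM in processes PTX. Replicate 1 was the higher library in every condition and all 4 conditions overlapped. The log2 fold change was 0.45 in somata (SE 0.29, edgeR adjusted p = 0.542, with the block 0.0386) and 0.01 in processes (SE 0.35, edgeR adjusted p = 0.997). Its value in somata was 0.06 without somata PTX replicate 1 and 0.74 without somata PTX replicate 2.

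Akap5, the postsynaptic scaffold for PKA and calcineurin, was measured at 19.6 and 18.4 CPM in somata control and 10.1 and 11.2 CPM in somata PTX. In processes it was at 13.2 and 10.9 CPM in control and 9.42 and 8.24 CPM in PTX. The groups did not overlap within a compartment, somata control stood above the other conditions, and processes control overlapped somata PTX. Akap5 fell by 0.83 on the log2 scale in somata (SE 0.136, 1.78-fold lower, edgeR adjusted p = 0.00844). The call was lost without somata control replicate 1 (log2 fold change -0.80, edgeR adjusted p = 0.0634), somata control replicate 2 (-0.89, edgeR adjusted p = 0.0576) or somata PTX replicate 1 (-0.77, edgeR adjusted p = 0.0891). In processes the log2 fold change was -0.45 (SE 0.167, edgeR adjusted p = 0.196, with the block 0.0982). Averaged over compartments, Akap5 fell by 0.64 (SE 0.108, 1.56-fold lower, edgeR adjusted p = 0.00384).

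**Figure D2:**
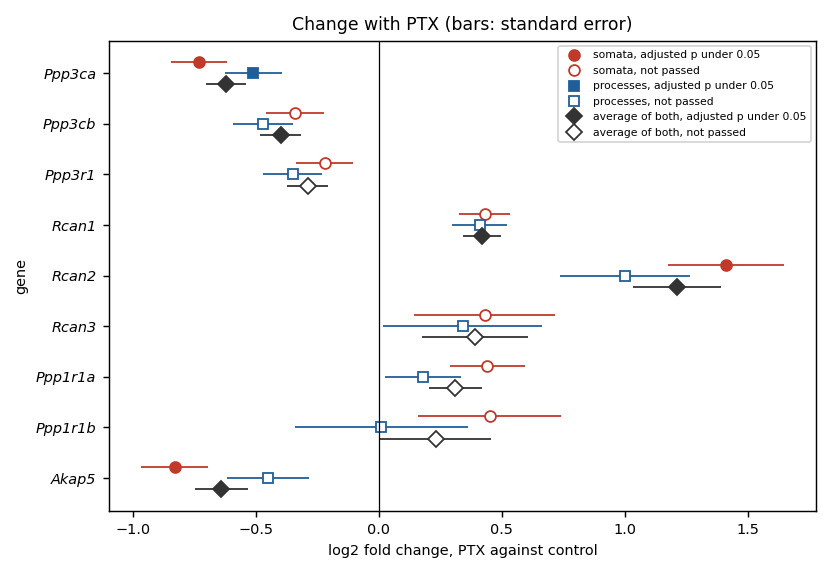
Log2 fold change of PTX against control (x axis) for the 9 genes (y axis), with circles for somata, squares for processes, diamonds for the average over both, and bars for the SE; filled symbols have an adjusted p under 0.05. Rcan2 lies farthest to the right, at 1.41 in somata and 1.0 in processes, and Akap5 and Ppp3ca farthest to the left.

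Whether the change with PTX differed between compartments was tested as an interaction, the log2 fold change in processes minus that in somata. No gene of 14309 passed (0% called) by edgeR's quasi-likelihood test, with 572 genes at an unadjusted p under 0.05. The likelihood ratio test and DESeq2 each called 4, the fit without a filter 10 and the fit with the replicate block 15. The 9 genes had unadjusted p-values from 0.104 to 0.903 and edgeR adjusted p = 1 throughout, and none passed with the replicate block. The interaction was 0.38 for Akap5 (SE 0.216), -0.41 for Rcan2 (SE 0.354) and 0.22 for Ppp3ca (SE 0.162). Without 1 library the value of Rcan2 ranged from -0.80 (without somata control replicate 1) to -0.09 (without somata control replicate 2), that of Ppp3ca from 0.10 (without processes PTX replicate 1) to 0.32 (without processes PTX replicate 2) and that of Akap5 from 0.26 to 0.52. A gene called in 1 compartment and not in the other is therefore not shown to differ between them.

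The next comparison was between processes and somata. Ppp1r1a was higher in processes in both treatments, and Ppp3ca and Akap5 were lower in processes of control cultures. The background was 47.7% of tested genes called in control and 49.8% in PTX cultures, and 3 of the 9 genes passed in control and 1 in PTX. With the replicate block 5 passed against 57.8%, and 3 against 59.5%. The counts moved with the setting, to 4 in control with the likelihood ratio test and to 4 in PTX with upper quartile scaling. No difference from the background is read from counts over 9 genes. Ppp1r1a differed by a log2 fold change of 1.38 in control (SE 0.157, 2.61-fold, edgeR adjusted p = 4.54e-05) and 1.13 in PTX (SE 0.152, 2.18-fold, edgeR adjusted p = 0.000148), and both calls held without any 1 library. It was the single gene of the 9 called with a log2 fold change above 1, a limit passed upward by 11.6% of tested genes in control and 11.4% in PTX.

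In control cultures Ppp3ca was lower in processes by 0.39 on the log2 scale (log2 fold change -0.39, SE 0.114, edgeR adjusted p = 0.0156). The call was lost without somata control replicate 1 (-0.36, edgeR adjusted p = 0.0845) or processes control replicate 2 (-0.31, edgeR adjusted p = 0.091), and in PTX cultures the log2 fold change was -0.18 (edgeR adjusted p = 0.226). Ppp3cb had the opposite sign, 0.31 in control (SE 0.12, edgeR adjusted p = 0.0524, with the block 0.00484) and 0.18 in PTX (edgeR adjusted p = 0.233). Its control value also passed with the likelihood ratio test (0.31, adjusted p = 0.0487) and with RLE size factors (0.32, edgeR adjusted p = 0.0462). The value in control passed without processes control replicate 2, processes PTX replicate 1 or processes PTX replicate 2 (edgeR adjusted p = 0.0448, 0.0485 and 0.0475). Akap5 was lower in processes of control cultures (log2 fold change -0.66, SE 0.148, edgeR adjusted p = 0.00416), and in PTX cultures its value was -0.27 (SE 0.156, edgeR adjusted p = 0.169).

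None of the Rcan genes passed between compartments in the main fit (TMM, read filter, quasi-likelihood test, no block). Rcan2 in PTX cultures and Rcan3 in control cultures depended on the setting. Rcan2 had a log2 fold change of -0.20 in control (edgeR adjusted p = 0.552) and -0.61 in PTX (SE 0.24, edgeR adjusted p = 0.0544, with the block 1.97e-05). The PTX value passed with the likelihood ratio test (edgeR adjusted p = 0.0346), DESeq2 (0.0338), upper quartile scaling (0.0175), no filter (5.74e-05), only the libraries compared (0.0317), a minimum of 10 reads in each library (0.0374) and in 4 of the 8 fits that left out 1 library, and the control value turned to 0.19 without somata control replicate 1. Rcan3 was at 0.72 in control (SE 0.319, edgeR adjusted p = 0.0858, with the block 0.0347) and 0.63 in PTX (SE 0.297, edgeR adjusted p = 0.10, with the block 0.03). Without processes control replicate 2 the control value of Rcan3 was 1.08, and without processes control replicate 1 it was 0.22. The former passed (edgeR adjusted p = 0.0293), as did the value of 0.70 without a filter (edgeR adjusted p = 0.0481). Rcan1 was at 0.15 and 0.13, Ppp3r1 at 0.07 and -0.07, and Ppp1r1b at 0.21 and -0.24 in control and PTX, with edgeR adjusted p-values of 0.286 or more.

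These differences are relative to the typical gene of each library, since nothing in the data measures the total RNA of a compartment. Over the tested genes the median compartment difference (log2) was -0.05 under TMM in either treatment, but -1.86 in control and -1.87 in PTX when library size alone was used, and then all 9 genes were called lower in processes in both treatments, Ppp1r1a by -0.43 and -0.71.

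**Figure D3:**
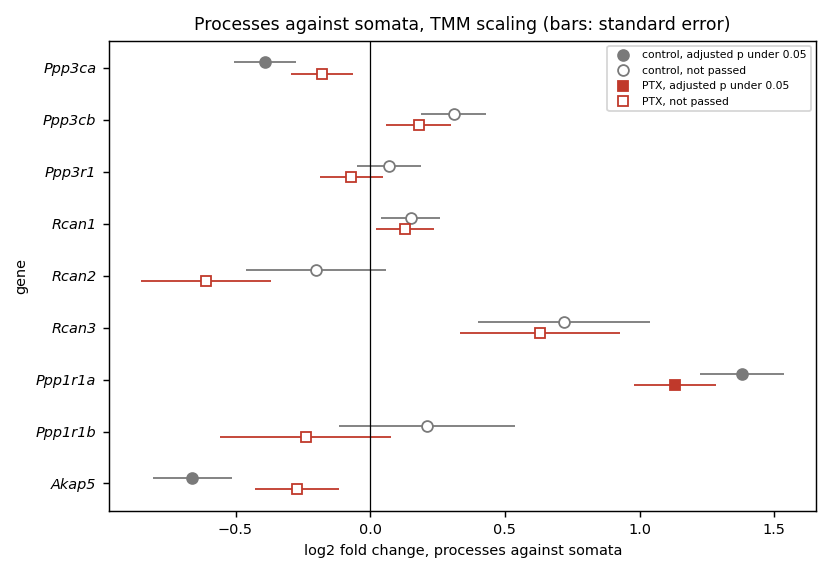
Log2 fold change of processes against somata (x axis) under TMM scaling for the 9 genes (y axis), with circles for control, squares for PTX and bars for the SE; filled symbols have an adjusted p under 0.05. Ppp1r1a stands at 1.38 and 1.13, apart from the other genes, and with library size only both of its values are negative.

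The balance between transcripts was read from ratios of the reads of 2 genes within a library, which do not depend on the scaling. These libraries measure RNA, and the make-up of the phosphatase as a protein was not measured in them. The ratio of Ppp3ca to Ppp3cb reads was 1.34 and 1.45 in somata control, 1.07 and 1.06 in somata PTX, 0.851 and 0.862 in processes control, and 0.833 and 0.827 in processes PTX. With PTX the mean log2 ratio went from 0.48 to 0.09 in somata and, by a smaller step, from -0.22 to -0.27 in processes. On the log2 scale the ratio was lower in processes than in somata by 0.53 (difference -0.53). Averaged over compartments it was lower with PTX by 0.22 (difference -0.22). There was no overlap between compartments or, within a compartment, between treatments. A two-sided exact permutation test over the 8 libraries, with 36 arrangements inside the other factor, gave p = 0.0556 for either difference. This is the smallest p that these arrangements allow, and it was 0.111 after Benjamini-Hochberg adjustment over the 12 tests of 6 ratios. No ratio can pass 0.05 in this permutation test, and no other test of the ratios was run.

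Among the Rcan genes, the Rcan1 to Rcan2 ratio was 1.12 and 1.77 in somata control, 0.626 and 0.781 in somata PTX, 1.56 and 1.96 in processes control, and 1.02 and 1.36 in processes PTX, lowest in both somata PTX libraries. The size of a ratio depends on the unknown lengths of both genes, and only its differences between libraries are read. The log2 ratio was lower with PTX by 0.79 (difference -0.79, exact permutation p = 0.0556, adjusted 0.111). The Ppp1r1a to Ppp1r1b ratio was 1.82 to 2.58 in the 4 somata libraries and 4.31 to 6.21 in the 4 processes libraries, a log2 difference of 1.26 (exact permutation p = 0.0556, adjusted 0.111), and differed by 0.09 with PTX (exact permutation p = 0.611). The Akap5 to Ppp3ca ratio lay between 0.109 and 0.136 in all 8 libraries, and its log2 difference with PTX was -0.02 (exact permutation p = 0.833) and between compartments -0.18 (exact permutation p = 0.111, adjusted 0.148). The Ppp3r1 to Ppp3ca ratio was 0.747 and 0.679 in somata control and between 0.977 and 1.23 in the 6 other libraries, with a log2 difference of 0.34 for PTX (exact permutation p = 0.111, adjusted 0.148). The Rcan3 to Rcan2 ratio differed by -0.80 with PTX and by 1.05 between compartments (exact permutation p = 0.0556 for either, adjusted 0.111).

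**Figure D4:**
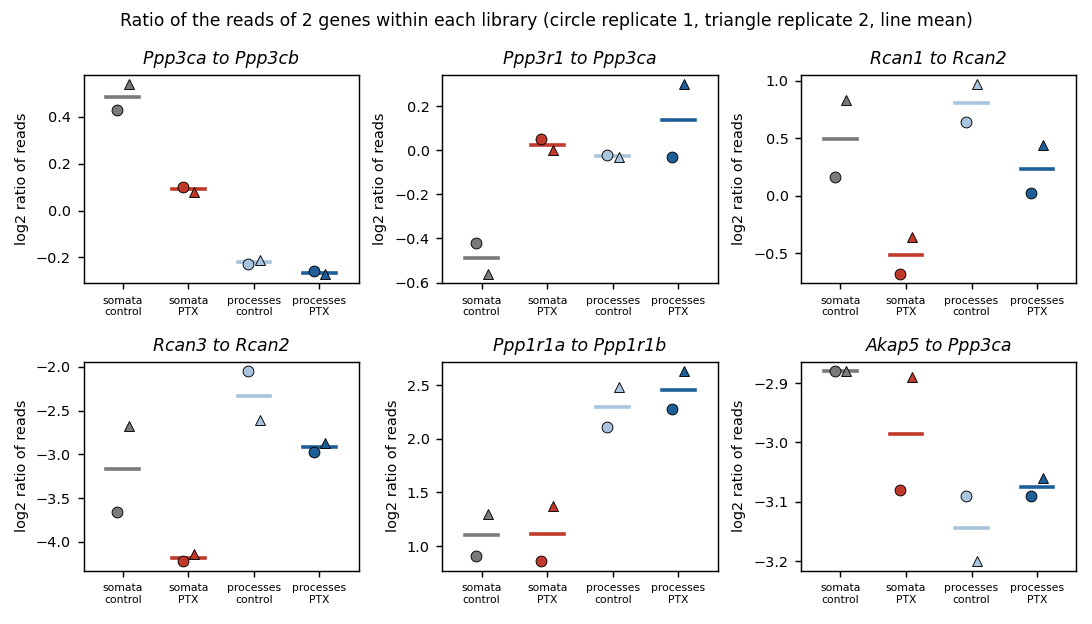
Log2 ratio of the reads of 2 genes within each library (y axis, a separate scale in each panel) in the 4 conditions (x axis), with a circle for replicate 1, a triangle for replicate 2 and a line at the mean. The Ppp3ca to Ppp3cb ratio steps down from 0.48 in somata control to 0.09, -0.22 and -0.27 in somata PTX, processes control and processes PTX, and the Ppp1r1a to Ppp1r1b ratio separates processes from somata.

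Other genes of the pathway were taken from 10 lists of 91 genes, of which 78 were tested. The lists too were chosen with earlier results of these data known. In somata 3 of 78 rose and none fell with PTX (3.85% called, against 3.59% of all tested genes), in processes 3 rose and 3 fell (7.69%, against 3.74%), and averaged over compartments 7 rose and 7 fell (17.9%, against 10% of all tested genes). With the replicate block 8 were higher and 6 lower in somata (background 14%), 3 and 10 in processes (11.2%), and 8 and 18 for the average (21%), where all tested genes had 1447 higher and 1562 lower. Their median log2 fold change for the average was -0.06, against -0.01 over all tested genes. The remaining catalytic subunit gene Ppp3cc did not pass (averaged log2 fold change -0.06, edgeR adjusted p = 0.855), and Ppp3r2, the testis form of the regulatory subunit, had at most 7 reads in a library and was not tested. None of 7 tested regulators of calcineurin other than the Rcan genes and none of the 3 PP1 catalytic subunit genes passed with PTX in any of these contrasts without the block. With it 1 of the 7 regulators, Fkbp1b, fell in somata (log2 fold change -0.61, edgeR adjusted p = 0.00754) and for the average (-0.54, edgeR adjusted p = 0.00293). Of 10 tested transcription factors and coactivators that calcineurin acts on, 1 fell, which is 10% and equal to the background for the average (with the block 3 fell for the average, against 21% of all tested genes). This was Crtc1, a CREB coactivator, with a log2 fold change of -0.81 in processes (SE 0.196, edgeR adjusted p = 0.0473) and -0.55 for the average (SE 0.136, edgeR adjusted p = 0.0284).

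Among 20 tested PP1 targeting subunits, 3 rose and 4 fell averaged over compartments (35%, against 10% of all tested genes; with the block 3 and 7, against 21%). Ppp1r3c, which directs PP1 to glycogen, was higher by 0.58 (SE 0.096, edgeR adjusted p = 0.00346), Ppp1r12c, a myosin phosphatase subunit, by 0.51 (SE 0.0768, edgeR adjusted p = 0.00227), and Ppp1r15a, which targets PP1 to the translation factor eIF2 alpha, by 0.52 (SE 0.118, edgeR adjusted p = 0.0184). Those that fell were Ppp1r13b (-0.59), Ppp1r16a (-0.39), Ppp1r21 (-0.37) and Ppp1r3e (-1.51). Ppp1r3e rested on 3 to 28 reads per library. Of 5 tested PP1 inhibitor genes beside the pair described above, 2 passed (40%, with the block also 2): Ppp1r14c (-0.32) and Ppp1r17 (-2.49, from 1 to 27 reads per library) fell. In processes of control cultures the spine protein spinophilin, encoded by Ppp1r9b, was higher by 2.39 (edgeR adjusted p = 3.95e-06) and Ppp1cb, a PP1 catalytic subunit, by 0.65 (edgeR adjusted p = 0.000432).

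On the PKA side, 2 of 9 subunit and inhibitor genes rose and none fell over both compartments (22.2%, against 10% of all tested genes), while 3 rose and 2 fell with the block (background 21%). Prkar2a, the type II alpha regulatory subunit that A-kinase anchoring proteins bind, had mean levels of 29.0 CPM ± 2.05 (SD, n = 2) in somata control, 47.3 ± 1.91 in somata PTX, 39.7 ± 0.729 in processes control and 97.8 ± 12.5 in processes PTX. The log2 fold change was 0.71 in somata (SE 0.118, edgeR adjusted p = 0.00895) and 1.30 in processes (SE 0.123, edgeR adjusted p = 0.000887). Prkar1b was higher by 0.35 for the average (SE 0.0964, edgeR adjusted p = 0.0414), and Prkar2b, the type II beta subunit common in neurons, had a value of -0.33 that did not pass without the block (edgeR adjusted p = 0.123, with the block 0.0026). Of 13 tested anchoring proteins other than Akap5, Akap13 rose (averaged log2 fold change 0.37, edgeR adjusted p = 0.0149) and none fell (7.69%, below the 10% of all tested genes), and with the block 1 rose and 2 fell (background 21%). Between compartments, 32 of the 78 genes were higher and 11 lower in processes of control cultures (55.1% called, against 47.7% of all tested genes), among them Akap12 (2.61) and Calm3 (1.02), while Calm2 was lower (-0.37).

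**Figure D5:**
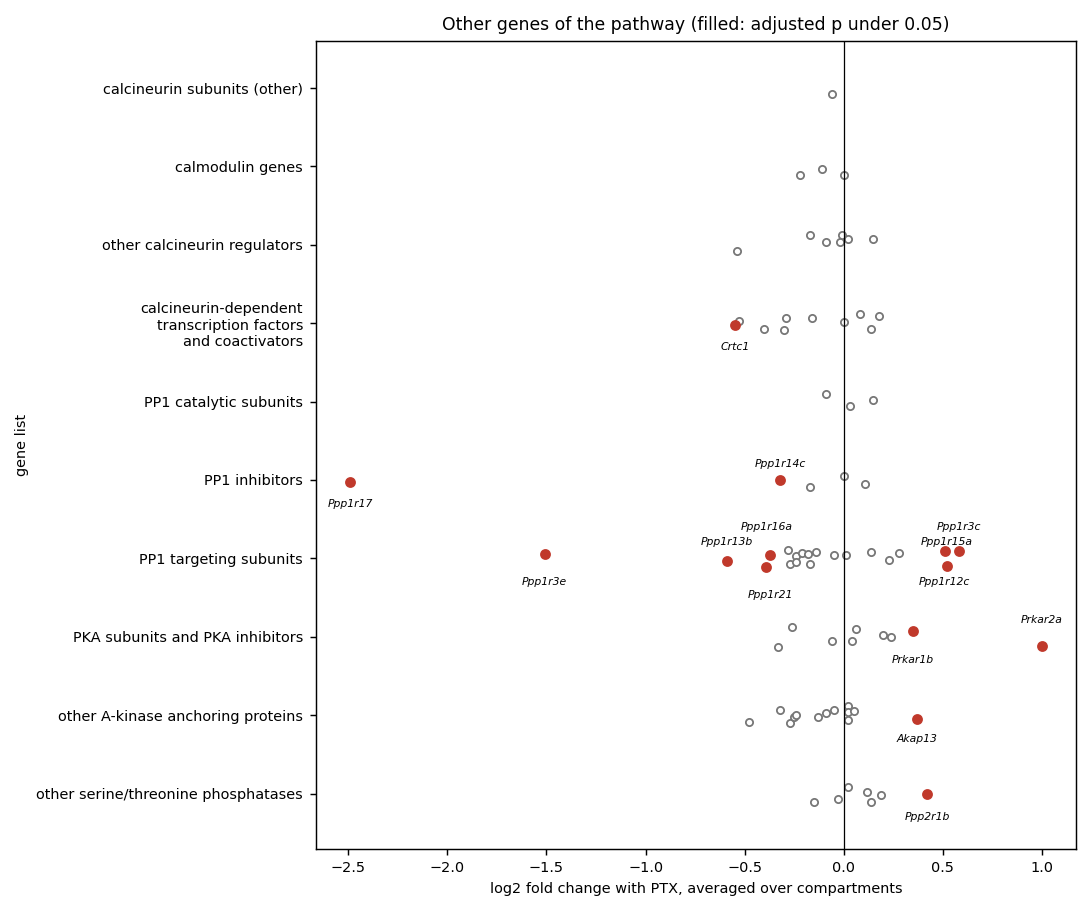
Log2 fold change with PTX averaged over compartments (x axis) for the 78 tested genes of the 10 pathway lists (y axis, with a small random vertical offset), filled and named where the adjusted p was under 0.05. Most genes lie near 0; Prkar2a lies at 1.0, and Ppp1r17 and Ppp1r3e, with at most 27 and 28 reads in a library, lie farthest to the left.

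Marker genes moved with PTX beside these genes. The background for the average over compartments was 10% of all tested genes called, and 21% with the replicate block. Of 5 excitatory neuron markers, Camk2a, a kinase, was the most abundant in processes control and Slc17a7, a vesicular glutamate transporter, in somata, and the 2 were at 246 and 251 CPM in processes PTX. Camk2a fell by 1.29 on the log2 scale averaged over compartments (SE 0.106, edgeR adjusted p = 8.47e-05), and the summed level of the 5 markers went from 420 to 436 CPM to between 280 and 302 CPM in somata and from 725 to 970 CPM to between 516 and 517 CPM in processes. Of the 5 excitatory markers 2 rose for the average (among them Slc17a6 by 0.80, edgeR adjusted p = 0.028) and 2 fell (Camk2a and Neurod6, the latter by 1.49 on the log2 scale, log2 fold change -1.49), with a median of 0.20. With the block 3 of the 5 rose and 2 fell. Slc17a7 was at 150 CPM in processes control and 251 CPM in processes PTX, and the median of the 5 in processes was 0.73. The pan-neuronal marker Rbfox3 fell by 0.60 (SE 0.101, edgeR adjusted p = 0.00387) and was 1 of the 2 that fell among 5 pan-neuronal markers (4 of 5 with the replicate block, median log2 fold change -0.37). Their summed level was 4960 to 5210 CPM in processes control and 3710 to 4350 CPM in processes PTX, and 1580 to 1790 CPM in somata control and 1380 to 1530 CPM in somata PTX. Of 5 tested interneuron markers 2 rose, Gad1 by 0.69 and Gad2 by 0.92 (edgeR adjusted p = 0.00601 and 0.00286), and 3 did not pass. With the block 3 of these 5 rose and none fell. Of 8 astrocyte markers, 1 fell and none rose (with the block 3 fell and 1 rose). None of 8 oligodendrocyte lineage markers (summed level 269 to 647 CPM over all libraries) and none of 4 tested endothelial and fibroblast markers (15.4 to 49.4 CPM) passed without the block, and with it 1 of the former fell and 1 of the latter rose. The part of these shifts in the changes of the calcineurin, Rcan and Akap5 genes was not tested.

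Finally, the genes whose profile over the 8 libraries was most like that of each gene were found among the 10200 genes that averaged 5 CPM or more, as those with the smallest root mean square (RMS) difference of log2 CPM after centring. Rcan3 lay under that limit. Ppp3ca was nearest to Chn1 (RMS difference 0.0561) and Prodh1 (0.0877), and Akap5 to Lmo3 (0.101) and again Chn1 (0.107), which encodes a GTPase-activating protein for Rac. Ppp3cb was nearest to Daam1 (0.0498) and Prkca (0.0659), and Ppp3r1 to Cplane1 (0.0575). Rcan1 was nearest to Snx10 (0.058) and Chst11 (0.0612). The nearest profiles to Rcan2 were farther off, Tmod1 (0.156) and Grasp (0.19). Ppp1r1a was nearest to Pank1 (0.0565) and Limk1 (0.0709), the latter a kinase of the actin regulator cofilin, and Ppp1r1b to Col4a1 (0.152) and Slc25a22 (0.153). The choice of genes depended on the measure. Daam1, Chst11, Tmod1 and Pank1 were also among the 2 nearest by Pearson correlation, and the other genes named here were not. The 8 points of each profile share libraries, depth and pairing, and the order is a description.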

How the data were processed

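Ribosome-depleted RNA was sequenced from 8 libraries, 2 for each of 4 conditions, which the labels give together with the replicate numbers. Per the paper's methods, the authors trimmed the reads, mapped them to the rat genome (Rnor 6.0) with Subread and counted them on Ensembl genes with featureCounts, while the submitters' processing notes name STAR, featureCounts and edgeR. Which aligner made the table was not settled. The deposited counts are whole numbers per gene symbol without normalization. The kit kept strand, but the strand setting of the counting is not given in the sources used here, so reads of antisense or overlapping genes, and of near-identical copies, are of uncertain origin. The authors' tables of their own PTX comparisons, with log2 fold change, log2 CPM, likelihood ratio, p-value, FDR and biotype, were not used.

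Genes that exceeded 20 reads in 2 or more libraries entered the fit, made with edgeR 4.0.16 in R 4.3.3 (TMM, glmQLFit and glmQLFTest, 1 coefficient per condition, all 8 libraries) for 6 contrasts, with Benjamini-Hochberg adjustment over the 14309 genes of each contrast and a threshold of 0.05. The SE was obtained by dividing the log2 fold change by the root of F. Log2 CPM used a prior count of 2. The coefficient of variation between libraries was 11.5%, and 6.77% with the replicate block. Libraries with the same replicate number were taken as paired, because their deviations went together: replicate 2 minus replicate 1, compared across genes, gave r = 0.54 for the control and PTX somata and r = 0.274 to 0.367 for the remaining 5 condition pairs. What the numbers mark is not given in the sources used here.

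Named genes are the 9 members, genes of the lists that passed the test, with values for at most 4 of a list and contrast except among the PP1 targeting subunits and markers, and the 2 nearest profiles per gene. Ppp3cc, Ppp3r2, Prkar2b and Fkbp1b, which did not pass with PTX without the block, were named after their values were seen. The members and lists were chosen with earlier results of these data known. As alternatives, the likelihood ratio test was run, and DESeq2 1.42.0, 3 other scalings, other filters, leaving out mitochondrial genes, fitting only the libraries compared, the replicate block and leaving out each library in turn. The outcome of a check of the tests on simulated counts is not given here, and no statement above rests on it. Nuclear-retained transcripts and protein sequences were not analysed here. Values of a few other genes are left out.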

Additional observations from a re-analysis of the deposited data

How the results depend on the processing

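With the likelihood ratio test 972 genes were called with PTX in somata, 949 in processes and 4 for the interaction; DESeq2 called 4 for the interaction. Without a filter on low counts these numbers were 1141, 1129 and 10, and 2153 for the average over compartments. With the replicate block they were 2002, 1601, 15 and 3009. Fitting only the 4 processes libraries gave 299 calls in processes and a log2 fold change of -0.50 for Ppp3ca, and library size only gave -0.47 for it; neither passed, and the cause was not tested. Library size only gave 13462 calls between compartments in control and 13499 in PTX, and turned the values of Ppp3cb to -1.50 and -1.65, of Rcan1 to -1.66 and -1.70, of Rcan3 to -1.11 and -1.20 and of Ppp1r1a to -0.43 and -0.71 in control and PTX, and in control those of Ppp3r1 to -1.74 and of Ppp1r1b to -1.61. Upper quartile scaling turned Ppp3r1 in control to -0.13 and Rcan1 to -0.05 in both treatments, and the interaction of Rcan1 to 0.01.

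Leaving out 1 library gave 116 to 568 calls in somata, 97 to 481 in processes, 840 to 1232 for the average, 5022 to 6922 and 5249 to 7233 between compartments in control and PTX, and 0 for the interaction. With PTX in somata, Ppp3ca ranged from -0.78 to -0.70, Rcan2 from 1.09 to 1.80 and Akap5 from -0.91 to -0.77, and in processes Ppp3ca ranged from -0.63 to -0.41. For the average, Ppp3ca ranged from -0.68 to -0.57, Ppp3cb from -0.46 to -0.36, Rcan1 from 0.38 to 0.45, Rcan2 from 1.04 to 1.40 and Akap5 from -0.71 to -0.57. Between compartments in control, Ppp3ca ranged from -0.48 to -0.31. Values near 0 changed sign without 1 library: Rcan3 (-0.02 to 0.84) and Ppp1r1b (-0.37 to 0.41) with PTX in processes, Ppp3r1 (-0.04 to 0.18), Rcan2 (-0.52 to 0.19) and Ppp1r1b (-0.20 to 0.52) between compartments in control, Ppp1r1b in PTX (-0.61 to 0.15), the interactions of Rcan1 (-0.09 to 0.05) and Rcan3 (-0.45 to 0.41), and the PTX differences of the ratios of Ppp1r1a to Ppp1r1b (-0.04 to 0.21) and Akap5 to Ppp3ca (-0.06 to 0.03).

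Of the 9 genes, 4 passed in somata, 4 in processes and 6 for the average with the likelihood ratio test, 3, 3 and 5 with DESeq2, and 5, 3 and 7 without a filter, against 3, 1 and 5. In processes the genes gained with the likelihood ratio test were Ppp3cb (adjusted p = 0.0187), Rcan1 (0.0475) and Rcan2, and with DESeq2 Ppp3cb (0.0367) and Rcan2. In somata Rcan1 passed with the likelihood ratio test (0.0123), RLE size factors (0.0495), no filter (0.0358) and only the libraries compared (0.0468). Between compartments in PTX, upper quartile scaling also brought Ppp3ca (-0.35, adjusted p = 0.0234) and Akap5 (-0.45, adjusted p = 0.0305) past the threshold.

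The replicate block changed no call of the 9 genes other than those given beside each gene. A condition with 1 library left was taken to vary like the others. Rcan3 and Ppp1r1b had the largest standard errors of the 9 genes for the average (0.216 and 0.227), and 2 libraries per condition limit every comparison.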

Other observations

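Of 7 tested serine/threonine phosphatase genes outside the calcineurin and PP1 families, Ppp2r1b, a scaffold subunit of protein phosphatase 2A, rose with PTX averaged over compartments (log2 fold change 0.42, SE 0.0978, edgeR adjusted p = 0.0218), and the other 6 did not pass (14.3% called, against 10% of all tested genes). The median of the 7 was 0.12, against -0.01 over all tested genes. In processes of control cultures 1 of the 7 was higher and 3 were lower (57.1% called, near the 47.7% of all tested genes), and Ppp2r1b was lower there by a log2 fold change of -0.45 (edgeR adjusted p = 0.0229).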
